A study of Mus musculus with 7 samples.

Results

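Keratins are the intermediate filament proteins of epithelial cells, and the values below describe all 42 protein-coding keratin genes among the 25322 genes of one mouse skin expression table. The members were the protein-coding genes whose symbol is Krt, a number and at most a letter a or b, so the keratin-associated proteins were left out. The libraries were bulk RNA-seq of tdTomato-expressing cells sorted from skin on day 36, 3 labelled control and 4 labelled Zfp750 knockout. All 7 mice carried Lrig1-CreER or Lrig1-CreERT2 (+/-), a Cre recombinase that 4-hydroxytamoxifen activates and that is driven by Lrig1, a gene of the upper hair follicle and its stem cells. All were treated with 4-hydroxytamoxifen as pups, on days 4 to 7 or days 5 to 8. The controls were Rosa26 +/-, 2 of them ZNF750 wt/fl and 1 of them wt/wt. The knockouts were ZNF750 fl/fl, and 1 of the 4 is labelled Rosa26 -/- where the other mice are Rosa26 +/-. Zfp750 is the mouse form of ZNF750, a transcription factor of epidermal differentiation. The columns of the table name the group, a number and a letter M or F, but not which mouse, so the libraries are called control 4F, 4M and 7F and knockout 1M, 2M, 3F and 6F, and their values are always given in that order.

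Keratin filaments are built from pairs of an acidic type I and a basic type II keratin, and epithelial layers can be told by the pair they make. Krt5 and Krt14 belong to the basal layer of epidermis, follicle and sebaceous gland, Krt1 and Krt10 to the layers above it, Krt6a, Krt16 and Krt17 to stressed or follicular epithelium, and Krt8, Krt18, Krt19 and Krt20 to simple epithelium and Merkel cells. In the follicle Krt79 marks the infundibulum, Krt75 the companion layer, Krt71 with Krt25, Krt27 and Krt28 the inner root sheath, and the Krt31 to Krt36 and Krt81 to Krt87 genes the hair shaft. In the mouse annotation 20 of the 42 genes lie on chromosome 11 and 22 on chromosome 15. The chromosome 11 cluster holds type I genes, and the chromosome 15 cluster holds type II genes together with the type I gene Krt18.

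The start regions of 6 members named below are shown first, to let the basal pair be read beside a companion layer, 2 inner root sheath and 1 simple epithelial keratin. Each is the 100 bases before the gene start in RefSeq (GRCm38.p6), read 5′ to 3′ on the gene's own strand, which is the minus strand for all 6, and capitals mark ATAAA, the core of a TATA box, where it begins 20 to 45 bases before the start. They lie at chr15:101712906-101713005 (Krt5), chr11:100206031-100206130 (Krt14), chr15:101573905-101574004 (Krt75), chr15:101743098-101743197 (Krt71), chr11:99374904-99375003 (Krt28) and chr11:99438154-99438253 (Krt20).
Krt5: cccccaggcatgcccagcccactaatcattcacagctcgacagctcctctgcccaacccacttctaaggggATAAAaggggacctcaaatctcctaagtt
Krt14: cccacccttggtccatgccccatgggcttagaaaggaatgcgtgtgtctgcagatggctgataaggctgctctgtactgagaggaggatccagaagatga
Krt75: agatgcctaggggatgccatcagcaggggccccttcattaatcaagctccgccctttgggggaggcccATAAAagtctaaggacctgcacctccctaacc
Krt71: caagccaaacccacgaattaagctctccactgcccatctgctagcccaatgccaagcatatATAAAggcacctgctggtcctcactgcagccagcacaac
Krt28: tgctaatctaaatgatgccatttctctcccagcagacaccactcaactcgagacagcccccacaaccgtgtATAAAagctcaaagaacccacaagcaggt
Krt20: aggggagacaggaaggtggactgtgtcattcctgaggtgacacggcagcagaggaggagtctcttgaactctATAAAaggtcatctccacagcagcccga
The letters ATAAA began 29 bases before the start in Krt5 and Krt28, 32 in Krt75, 39 in Krt71 and 28 in Krt20, and were not in that window of Krt14. The RefSeq promoter set covers 27 of the members, each read by its first listed promoter. Of these, 15 had ATAAA at 20 to 45 bases before the start (55.6%), against 1588 of all 32851 listed promoters (4.83%). The longer TATAAA, which overlaps it, was there in 10 of 27 members (37.0%) and 702 promoters (2.14%). TGANTCA, the letters bound by AP-1 factors, was in none of the 27 on either strand over 250 bases, against 6.75% of all promoters. These are matches of letters, read on the gene's strand except where both strands are named.

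The sorted libraries held little keratin RNA. Keratins made up 0.232%, 0.0330% and 0.0517% of the summed normalized counts in the controls (4F, 4M, 7F), and 0.229%, 0.0963%, 0.0244% and 0.0595% in the knockouts (1M, 2M, 3F, 6F). Read totals recovered from the table ran from 9.09 to 17.1 M, so keratins took 2335 to 39597 reads per library. High and low libraries occurred in both groups: control 4F and knockout 1M were highest, and knockout 3F was lowest. Fibroblast markers (8 of 8 tested, Col1a1 and Dcn among them) summed to 86976 to 177043 per M (per 1000000 of a library's summed normalized counts) in the controls and 17040 to 112096 in the knockouts, and 21 macrophage genes summed to 227 to 6566 and 575 to 11488. Zfp750 itself stood at 25.4, 4.29 and 5.52 per M in the controls and 3.65, 3.44, 0.942 and 2.84 in the knockouts, lower in every knockout. Its log2 difference was −1.47, with an exact two-sided permutation p of 0.0571, the smallest that 3 libraries against 4 can give, and limma's adjusted p was 0.891 with the group term alone. Whether these reads fall in the deleted part of the gene is not given in the sources used here. In such bulk samples, fewer cells of a type and less RNA per cell cannot be told apart.

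Of the 42 keratins, 26 reached 1 per M in at least 3 libraries and were tested, and 16 stayed below that. The tested ones were all 3 basal, all 4 suprabasal, 3 of 4 stress, 2 of 6 simple, 5 of 7 inner root sheath and 6 of 13 hair shaft keratins, with Krt79, Krt75 and Krt4. Compared per kilobase of exon, Krt5 had the highest mean at 183 per M per kb, then Krt14 at 121, Krt17 at 81.7, Krt6a at 20.8, Krt15 at 19.5, Krt71 at 17.5, Krt75 at 9.63, Krt79 at 6.58 and Krt25 at 5.42. Krt14 lay above Krt17, and Krt17 above Krt6a, in 7 of 7 libraries. None of the other pairs of neighbours among the 25 held its order in all 7. Krt5 lay above Krt14 in 6 libraries and Krt6a above Krt15 in only 3.

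**Figure D1:**
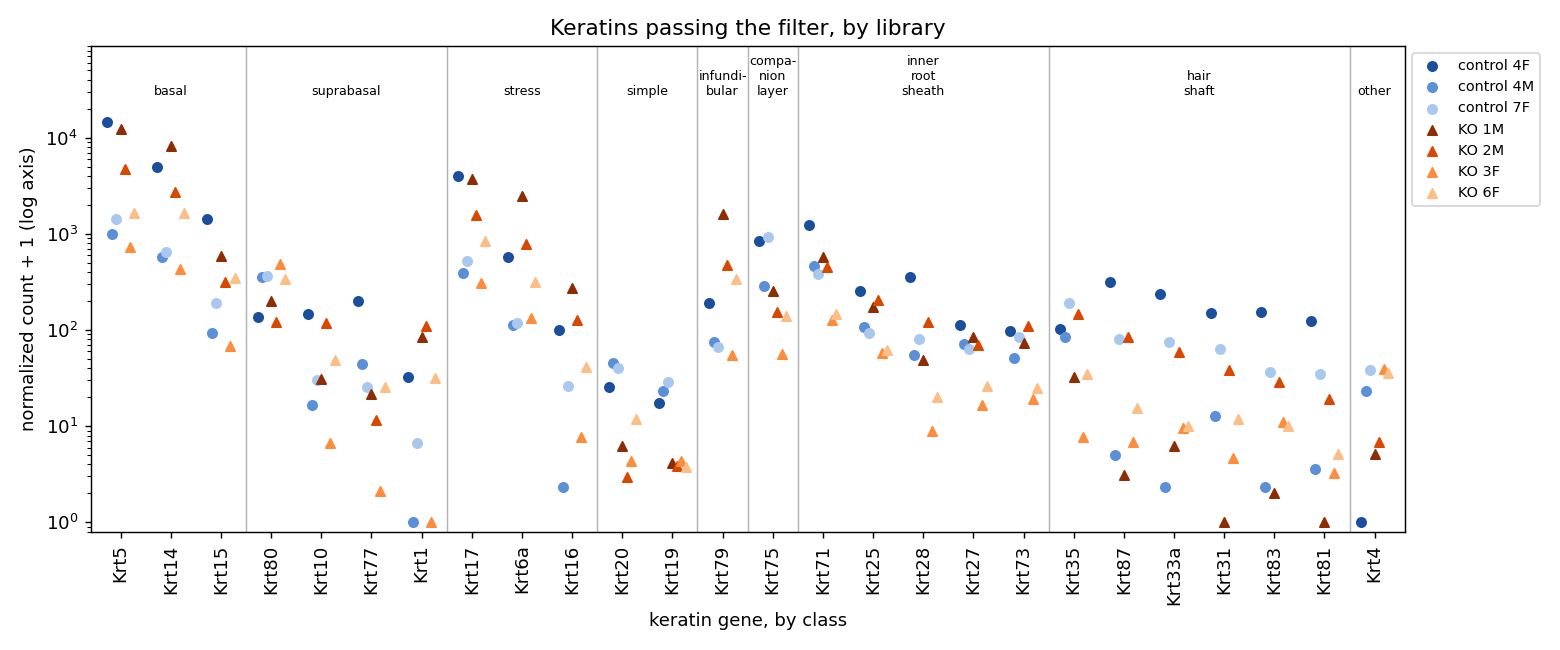
Normalized counts (plus 1, log axis) of the 26 tested keratins, ordered by class, with 1 point per library (circles control, triangles Zfp750 knockout). Krt5 spans 727 to 14685 and both groups reach high and low values, while Krt19 and Krt20, the 2 tested simple epithelial keratins, lie higher in the 3 controls.

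Keratins varied more between libraries than most genes. On the log2 scale the median range over the 7 libraries was 3.67 for the 26 tested keratins and 1.20 for all 18141 genes tested, from 1.45 for Krt19 to 4.61 for Krt79. Control 4F held the highest value for 14 of the 26 and knockout 3F the lowest for 14. A score of 15 epithelial genes other than keratins, such as Epcam and Cdh1, ran the same way: its mean log2 value was 9.92 in 4F and 9.60 in 1M, and 6.91 in 3F. The macrophage score ran the other way, from 5.96 in 4F to 11.3 in 3F. With the group held fixed, Krt5 changed by −0.75 log2 per unit of the macrophage score, whereas Krt80 and Krt4 went with it, at 0.33 and 0.40. Krt19 and Krt20 were nearly flat, at 0.04 and 0.09. Each keratin was therefore compared between knockout and control by group alone, with the macrophage score, and with the epithelial score as another term.

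By group alone, no keratin passed limma's adjusted threshold of 0.05, nor did any gene (0% of 18141 in either direction). At an unadjusted p under 0.05, 0 keratins were higher and 4 lower, where 2.18% of all genes were higher and 3.65% lower. With the macrophage score, 5 of 26 keratins fell and 0 rose, against 2.18% of all genes that fell and 1.39% that rose. The 5 were Krt75 of the companion layer, Krt71 and Krt28 of the inner root sheath, and Krt19 and Krt20 of simple epithelium. Krt19 reached 1 per M only in the 3 controls, so it was tested only because the controls were high, and its call adds no support. Krt20 reached it in the 3 controls and, of the knockouts, in 6F alone. The controls alone thus met the filter for Krt20, and its call adds no support either. The number of keratins called was 0 without control 7F, 1 without control 4M, 2 without knockout 2M, 3 without knockout 6F and 6 without control 4F, all lower. Of all genes, 0.625%, 0.532%, 1.28%, 1.48% and 5.55% were lower in the same fits, in that order. The shares higher were 0.443%, 0.306%, 0.671%, 1.04% and 3.43%. The calls over all genes thus also changed with the library left out. Without knockout 3F, 2 keratins were lower and 2 higher (Krt1 and Krt79), so there the calls went both ways, against 1.29% and 0.958% of all genes. At an unadjusted p under 0.05 this fit had 10 keratins lower and 4 higher (9.06% and 8.24% of all genes). With the epithelial score 0 of 26 passed, against 0.413% of all genes lower and 0.0992% higher, while 9 keratins were lower and 5 higher at an unadjusted p under 0.05 (6.99% and 5.83% of all genes). The median log2 difference of the 26 keratins was −0.69, −0.60 and −0.66 in the 3 fits, and 0.02 over all genes in each. The deposited values of the groups did not overlap for 3 of the 26 (Krt75, Krt19 and Krt20), all lower in the knockouts, against 3.91% of tested genes lower and 3.19% higher. Krt19 was among the 26 only through its control values, and for Krt20 the controls alone met the filter. Over all 42 members Krt84 was also lower and Krt6b higher, against 3.93% and 2.94% of all listed genes.

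**Figure D2:**
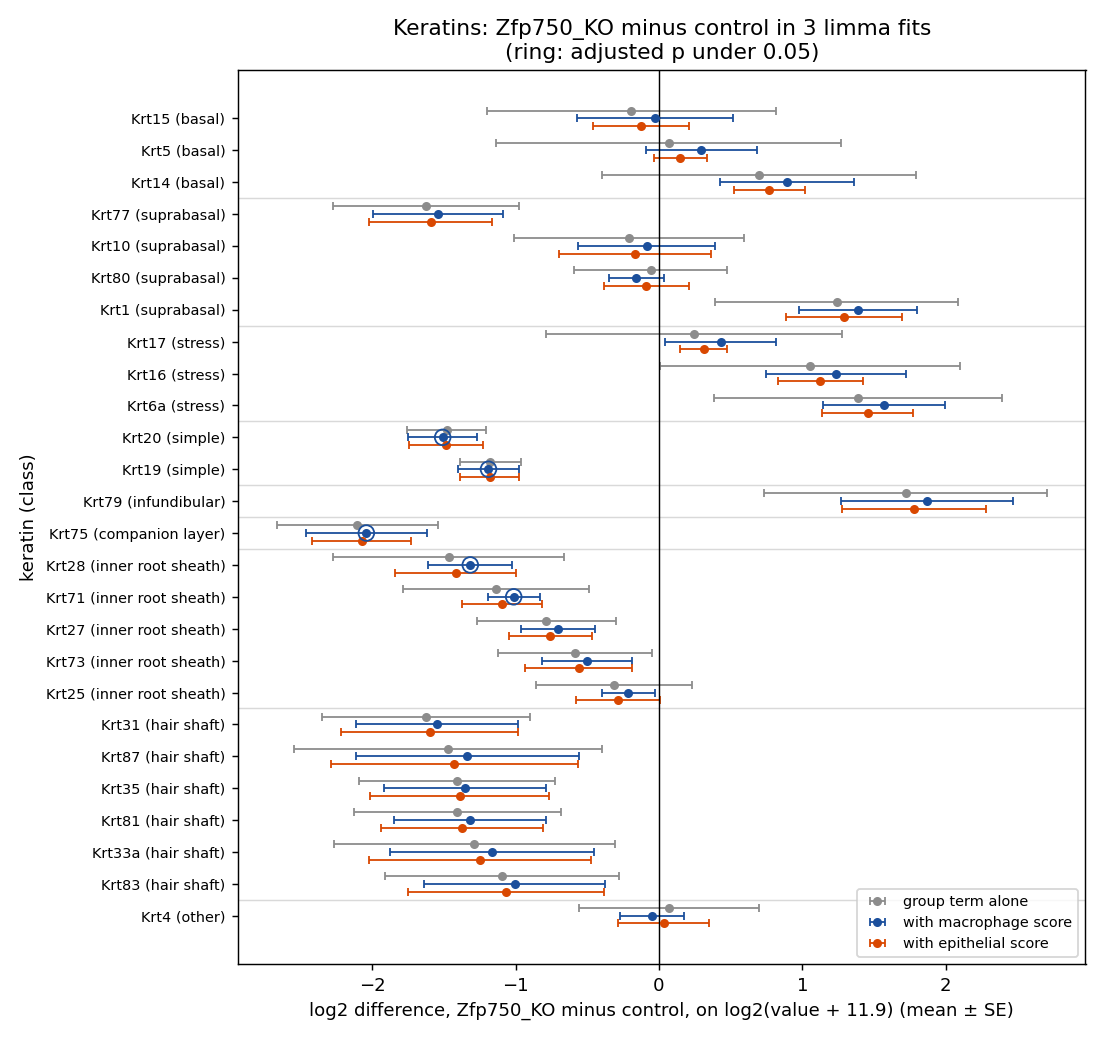
Log2 difference, knockout minus control, of the 26 tested keratins in 3 limma fits (points, with 1 standard error on each side), with rings where the adjusted p is under 0.05. Rings stand only on Krt75, Krt71, Krt28, Krt19 and Krt20 in the fit with the macrophage score, and the error bars of Krt5, Krt14 and Krt6a shrink once either score is in the fit.

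Basal keratins did not separate the groups. Krt5, the type II partner of the basal pair, had normalized counts of 14685, 996 and 1431 in the controls and 12180.3, 4759.9, 727 and 1652 in the knockouts. Its high libraries were 1 of each group, and the groups overlapped throughout. The log2 difference was 0.07 ± 1.20 (SE), with an exact two-sided permutation p of 0.971 (n = 3 and 4), and 0.15 ± 0.18 with the epithelial score, where limma's adjusted p was 0.836. Krt14, the type I partner, had 4909, 578 and 642 in the controls and 8143, 2715, 432 and 1631 in the knockouts. Its log2 difference was 0.70 ± 1.10 (SE; exact permutation p 0.571) and 0.77 ± 0.25 with the epithelial score, where limma's adjusted p was 0.235. As a share of Krt5 within the same library, Krt14 was 33.4%, 58.0% and 44.9% in the controls and 66.9%, 57.0%, 59.4% and 98.8% in the knockouts, so the groups overlapped by 1 library each. Krt15, a basal keratin enriched in the follicle bulge, had 1437, 93.2 and 188 against 594, 314, 66.5 and 348.

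Suprabasal keratins were low and did not move together. Krt10, the type I keratin of differentiated epidermis, had 146, 15.8 and 29.2 normalized counts in the controls and 30.2, 116, 5.64 and 48.2 in the knockouts. Its partner Krt1 had 31.7, 0 and 5.62 against 83.2, 110, 0 and 31.0, and was listed at 0 in 1 library of each group. The log2 difference of Krt1 was 1.39 ± 0.41 (SE) with the macrophage score, which missed the threshold (limma adjusted p 0.112) but passed it without knockout 3F (1.74, adjusted p 0.0208). Krt80, a keratin found in many epithelia, had 135, 356 and 366 against 199, 119, 480 and 340, high where most keratins were low. Krt77, a type II keratin of sweat ducts and skin, had 198, 43.3 and 24.7 against 20.8, 10.6, 1.13 and 24.8. Its log2 difference of −1.54 ± 0.46 (SE) also missed the threshold (limma adjusted p 0.110) and passed it without knockout 6F (−1.91, adjusted p 0.0332).

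Among the stress keratins, Krt6a separated the groups when set against Krt5 of the same library, and not by its own value. Krt6a, induced in wounded and inflamed epidermis and made in the companion layer, had 575, 112 and 118 normalized counts in the controls and 2496, 783, 133 and 313 in the knockouts. These overlapped, because knockout 3F and 6F lay below control 4F. As a share of Krt5 it was 3.92%, 11.2% and 8.25% in the controls and 20.5%, 16.5%, 18.3% and 18.9% in the knockouts. Every knockout was above every control. Of 25 tested keratins set against Krt5 in this way, Krt6a alone was higher without overlap and Krt31 alone lower, against 0.386% and 0.198% of all tested genes. Krt5 varied widely within both groups, so genes that do not follow it overlap more readily once divided by it. Those all-gene shares are therefore a low reference for keratins. The log2 difference of Krt6a was 1.39 ± 1.01 (SE) by group alone, 1.57 ± 0.42 with the macrophage score and 1.46 ± 0.32 with the epithelial score, and limma's adjusted p was 1.00, 0.0832 and 0.102. Krt17, the follicular stress keratin, followed Krt5 closely, with 4000.3, 389 and 519.7 against 3709.6, 1578, 304 and 837. It was 27.2% to 39.0% of Krt5 in the controls and 30.5% to 50.7% in the knockouts. Krt16, the type I partner of Krt6a, had 98.6, 1.32 and 25.1 against 269.9, 127, 6.78 and 40.2. Reads of Krt6a, Krt16 and the near-copy Krt6b were in part split by estimate in the table, and Krt6b, below the filter, had 66.2, 4.62 and 6.81 in knockout 1M, 2M and 3F and values at or next to 0 elsewhere, so the division between Krt6a and Krt6b is uncertain.

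**Figure D3:**
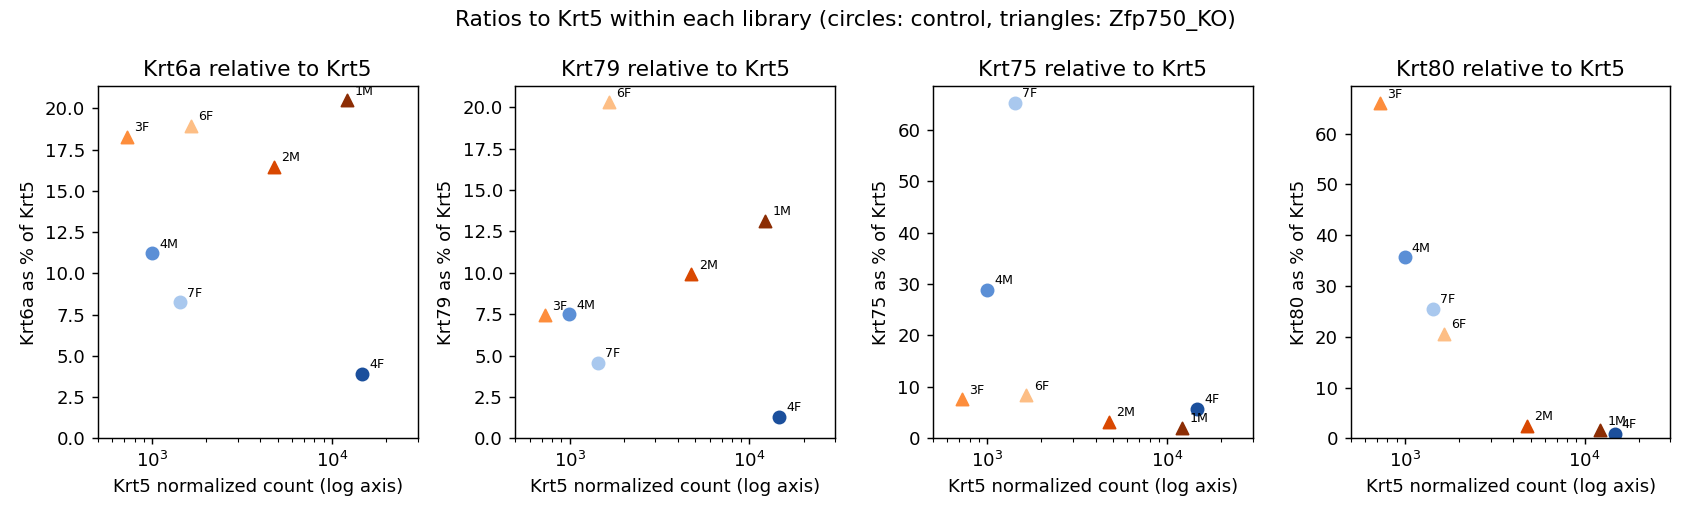
Krt6a, Krt79, Krt75 and Krt80 as a percentage of Krt5 in the same library, against the normalized count of Krt5 (log axis), circles control and triangles Zfp750 knockout. The 4 knockouts lie at 16.5% to 20.5% for Krt6a and the controls at 3.92% to 11.2% over the whole range of Krt5. The percentage for Krt80 falls as Krt5 rises in both groups. Krt80 itself spans only 119 to 480 and Krt5 727 to 14685, so that fall follows from dividing by Krt5.

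Krt79, a type II keratin of the infundibulum and the upper follicle canal, had 192, 74.8 and 65.2 normalized counts in the controls and 1601, 471, 54.1 and 335 in the knockouts. Knockout 1M, 2M and 6F lay above all controls and 3F below them. Its log2 difference was 1.72 ± 0.98 (SE) by group alone and 1.87 ± 0.60 with the macrophage score, where limma's adjusted p was 0.139, and it passed the threshold only without knockout 3F (2.41, adjusted p 0.0367) among the fits that left out 1 library. Within the keratins, Krt79 was 0.626%, 1.90% and 1.13% of the summed normalized counts in the controls and 5.21%, 3.71%, 2.06% and 5.40% in the knockouts, higher in every knockout.

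Krt75, the type II keratin of the companion layer between the outer and inner root sheath (ENSMUSG00000022986, chromosome 15), was lower in every knockout. Its normalized counts were 843, 288 and 934 in the controls (688 ± 350, SD, n = 3) and 253, 153, 55.2 and 139 in the knockouts (149.9 ± 80.9, SD, n = 4). The lowest control lay just above the highest knockout. The log2 difference was −2.04 ± 0.42 (SE) with the macrophage score (limma adjusted p 0.0336), −2.10 ± 0.56 by group alone (adjusted p 0.454) and −2.07 ± 0.35 with the epithelial score (adjusted p 0.0531). The call with the macrophage score was lost with robust moderation (limma adjusted p 0.0668) and without control 7F or knockout 2M, 3F or 6F, where the adjusted p ranged up to 0.118, and the difference stayed between −2.48 and −1.47 over the 7 fits that each left out 1 library. Krt75 was 5.74%, 28.9% and 65.3% of Krt5 in the controls and 2.07%, 3.21%, 7.60% and 8.42% in the knockouts. That ratio moved with Krt5 itself, since control 4F, the library richest in Krt5, lay within the range of the knockouts.

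**Figure D4:**
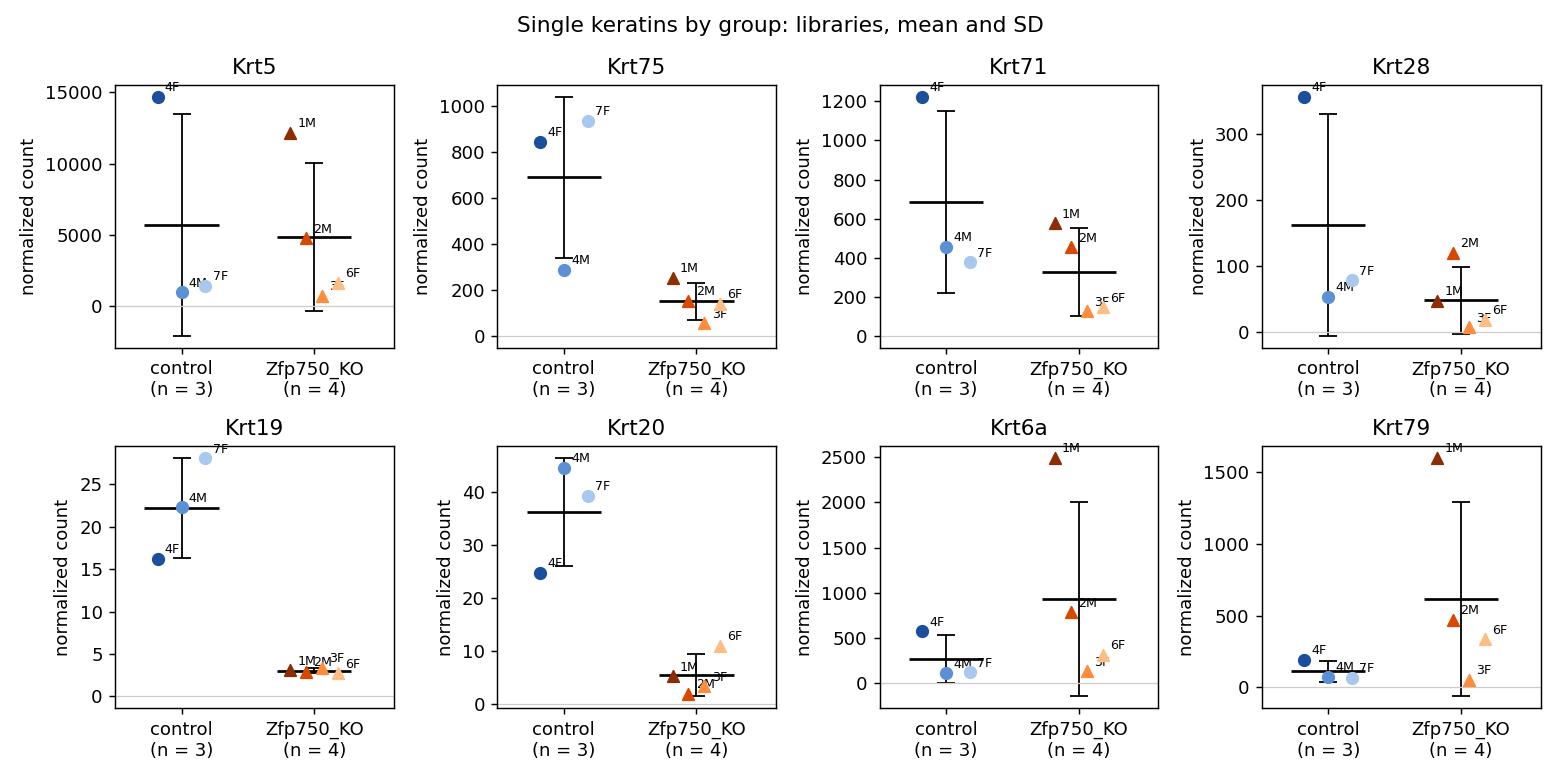
Normalized counts of 8 keratins in the 3 control and 4 Zfp750 knockout libraries (points, labelled by library), with the group mean (line) and SD (bars). Krt75, Krt19 and Krt20 separate the groups, with 843, 288 and 934 in the controls and at most 253 in the knockouts for Krt75, while Krt5 and Krt6a are spread widely within each group. For Krt19 and Krt20 the controls alone met the filter, so their separation adds no support.

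All 5 tested inner root sheath keratins had negative differences in each fit, and 2 of them fell in the fit with the macrophage score. Of all 18141 tested genes, 8469 were negative by group alone, 8610 with the macrophage score and 8507 with the epithelial score. The 5 come from the same libraries, so their signs are not separate observations. Krt71, the type II keratin in which mutations give a wavy coat (ENSMUSG00000051879, chromosome 15), had 1223, 457 and 378 normalized counts in the controls and 577, 453, 125 and 145 in the knockouts. Knockout 1M and 2M lay within the range of the controls and 3F and 6F below it. Its log2 difference was −1.01 ± 0.18 (SE) with the macrophage score (limma adjusted p 0.0188) and −1.14 ± 0.65 by group alone (adjusted p 1.00). Krt28, a type I partner (ENSMUSG00000055937, chromosome 11), had 356, 53.8 and 78.7 against 47.8, 121, 7.89 and 19.3. Only knockout 2M lay within the range of the controls. Its difference was −1.32 ± 0.29 (SE; limma adjusted p 0.0457) with the macrophage score and −1.42 ± 0.42 (adjusted p 0.208) with the epithelial score. Both calls were lost in 5 of the 7 fits that left out 1 library (control 4M, 7F, knockout 3F or 6F for both, 2M for Krt71 and 1M for Krt28), with adjusted p up to 0.113 for Krt71 and 0.195 for Krt28. The call of Krt28 was also lost with a pseudocount of 5 per M or no filter (limma adjusted p 0.0819 and 0.0516), and with the epithelial score it passed without knockout 2M (−1.81, adjusted p 0.0403). Krt25, another type I partner, had 252, 106 and 91.1 against 174, 203, 56.4 and 60.6, and its difference of −0.21 ± 0.18 (SE) did not pass (limma adjusted p 0.630). Krt71 was 486%, 430% and 415% of Krt25 in the controls and 332%, 223%, 222% and 239% in the knockouts, with no overlap. This was 1 of many keratin ratios looked at. The share of all genes that do not overlap once divided by Krt25 was not computed, so the separation is a description only. Krt27 had 111, 70.9 and 63.0 against 83.2, 68.6, 15.8 and 25.5, and passed with the macrophage score when control 4F was left out (−1.01, limma adjusted p 0.0416). In that fit 5.55% of all genes were lower, against 2.18% with all 7 libraries. Krt73 had 97.5, 49.9 and 83.2 against 71.7, 109.1, 18.03 and 24.1. Krt26 and Krt72 were below the filter, at 0 to 20.1. Among 8 markers of follicle stem and upper follicle cells (8 of 8 tested), Cd34, which fibroblasts and endothelial cells also make, stood at 1709, 724 and 839 per M in the controls and 397, 387, 258 and 269 in the knockouts. The other 7 (Lgr5, Lgr6, Lrig1, Lhx2, Sox9, Plet1 and Gata6), summed without Cd34 after its values were seen, stood at 428, 104 and 117 against 426, 334, 88.6 and 168, so their groups overlapped, and Plet1 at 17.5, 1.32 and 3.00 against 44.4, 14.0, 18.8 and 30.7. The part of these markers in the follicle keratin values was not tested.

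As a summed class, hair shaft keratins were highest in control 4F, 7F and knockout 2M, at 93.9, 51.8 and 29.9 per M, against 3.26 to 11.7 in the other 4 libraries. None of the 6 tested ones passed in any of the 3 fits, and all 6 had negative differences, from −1.62 for Krt31 to −1.10 for Krt83 by group alone. In that fit 8469 of all 18141 tested genes were negative. The 6 come from the same libraries and in part share reads, so their signs are not separate observations. Krt35, a type I keratin of the hair matrix and cuticle, had 102, 84.0 and 189 normalized counts in the controls and 31.2, 144.9, 6.76 and 33.7 in the knockouts, and passed with the macrophage score when control 4F was left out (log2 difference −1.99, limma adjusted p 0.0332). Without control 4F, 5.55% of all genes were lower, against 2.18% with all 7 libraries. Krt87, a type II keratin, had 316, 3.98 and 78.7 against 2.08, 83.4, 5.85 and 14.5. Krt33a, a type I keratin of the cortex, had 233, 1.31 and 74.7 against 5.198, 58.4, 8.59 and 9.08. The standard errors were wide: the log2 difference was −1.47 ± 1.07 (SE) for Krt87 and −1.29 ± 0.98 for Krt33a, with limma's adjusted p at 1.00 for both. Krt31 was lower without overlap once set against Krt5, where it is listed at 0 in knockout 1M. Krt84, a type II hair and tongue keratin below the filter, had 9.29, 5.25 and 4.50 normalized counts in the controls, from 12, 4 and 4 reads, and 0 in all 4 knockouts, where a count of 0 allows up to 0.198 to 0.314 per M, for counting error only. The 7 hair shaft keratins below the filter (Krt32, Krt33b, Krt34, Krt36, Krt82, Krt84 and Krt86) ran from 0 to 43.4. Reads of Krt31, Krt33a, Krt81 and Krt87 were in part split by estimate between near-copies, so single members of this class are less certain than their sum.

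Krt19 and Krt20, keratins of simple epithelium, were low in all libraries and lower in every knockout. Krt19, a type I keratin also found in follicle bulge cells (ENSMUSG00000020911, chromosome 11), had 16.3, 22.3 and 28.1 normalized counts in the controls (22.2 ± 5.93, SD, n = 3) and 3.12, 2.90, 3.38 and 2.75 in the knockouts (3.04 ± 0.27, SD, n = 4). These came from 21, 17 and 25 reads against 3, 3, 3 and 4, so counting error is large in the knockouts. Krt20, a type I keratin of Merkel cells and gut (ENSMUSG00000035775, chromosome 11), had 24.8, 44.6 and 39.4 (36.3 ± 10.3, SD, n = 3) against 5.198, 1.93, 3.38 and 11.02 (5.38 ± 3.99, SD, n = 4), from 32, 34 and 35 reads against 5, 2, 3 and 16. With the macrophage score the log2 difference was −1.19 ± 0.21 (SE) for Krt19 and −1.51 ± 0.24 for Krt20, with limma's adjusted p at 0.0188 and 0.0117. On log2(value + 11.9), the scale of all these differences, changes of such low genes are understated. By group alone the adjusted p was 0.210 and 0.219, and with the epithelial score 0.0585 and 0.0567. Krt20 lost its call without control 4M or 7F (adjusted p up to 0.0751), and Krt19 lost it without knockout 2M (0.0561) and fell below the filter in 3 of the 7 fits that left out 1 library. Krt19 reached 1 per M only in the 3 controls (1.23, 1.87 and 2.51 per M, against 0.220 to 0.314 in the knockouts). It was tested only because the controls were high, so its call and its lack of overlap add no support. Krt20 reached 1 per M in the 3 controls (1.88, 3.74 and 3.51 per M) and, of the knockouts, in 6F alone (1.06). For Krt20 too the controls alone met the filter and the knockouts alone could not. Its call and its lack of overlap therefore add no support either.

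Other simple keratins did not share that pattern. Krt8, Krt18, Krt7 and Krt23 were below the filter, at 0.689 to 24.8 normalized counts in all libraries, and the groups overlapped for each. Krt8, the type II partner of Krt18, had 11.6, 1.31 and 2.25 against 8.32, 17.1, 7.89 and 11.7. Of the other Merkel cell markers, Sox2 and Chga stayed at or under 0.469 and 1.19 per M, Isl1 at or under 1.30, and Piezo2, an ion channel that other cells also make, stood at 7.50 to 11.7 in the controls and 56.4, 62.3, 8.37 and 13.3 in the knockouts. Atoh1 was not analysed here. The skeletal muscle genes Acta1, Ckm, Myh4 and Myog (4 of 4 tested) summed to 21.9, 444 and 299 per M in the controls and 6.14, 4.47, 41.0 and 25.2 in the knockouts. Unlike for Krt19 and Krt20, control 4F lay below knockout 3F and 6F. The part of these muscle genes in the result was not tested. Krt4, a type II keratin of wet stratified epithelia, had 0, 22.3 and 37.1 against 4.16, 5.80, 38.3 and 34.4.

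The shares of 4 of 9 keratin classes in the keratin RNA did not overlap between the groups. In each library the classes add to 100%, so a higher share of one class lowers the others, and these shares are descriptions with no test. Basal keratins made up 68.6%, 42.3% and 39.0% in the controls and 68.1%, 61.4%, 46.5% and 58.5% in the knockouts. Stress keratins made up 15.2%, 12.7% and 11.4% against 21.3%, 19.6%, 17.1% and 19.2%, higher in every knockout. Krt75 made up 2.75%, 7.30% and 16.1% against 0.822%, 1.20%, 2.098% and 2.24%, and the hair shaft class 4.04%, 3.53% and 10.0% against 0.142%, 3.11%, 2.06% and 1.65%, both lower in every knockout. The inner root sheath class overlapped, at 6.74%, 18.7% and 12.1% against 3.12%, 7.60%, 8.65% and 4.51%. Gene by gene, shares of summed keratin were higher without overlap for 3 of 26 tested members (Krt14, Krt6a and Krt79) and lower for 4 (Krt75, Krt31, Krt28 and Krt77), where 0.573% and 0.413% of all tested genes set against the same sum were higher and lower. Over all 42 members 5 were higher and 6 lower, against 0.881% and 0.608% of all listed genes. Summed keratin ran from 244 to 2321 per M, so genes that do not follow it overlap more readily once divided by it. By deposited values, 3.19% of tested genes were higher and 3.91% lower without overlap. The keratins are themselves part of the sum, so the all-gene shares of these ratios are a low reference for them.

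**Figure D5:**
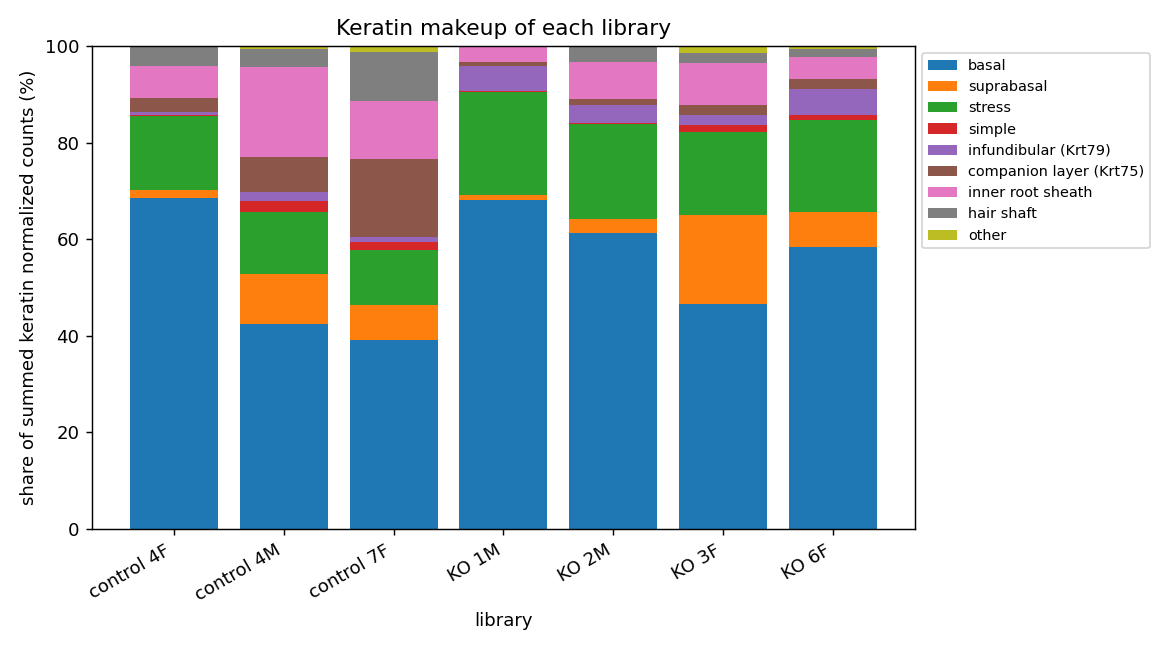
Share of the summed keratin normalized counts taken by each keratin class (stacked bars, in %) in the 7 libraries. The stress class takes 17.1% to 21.3% in the 4 knockouts and 11.4% to 15.2% in the 3 controls, and Krt75 takes at most 2.24% in the knockouts and at least 2.75% in the controls.

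The shares were read against the amount of keratin, which ranged about as widely in both groups. Control 4F and knockout 1M held nearly equal keratin, at 2321 and 2293 per M. Between these 2 libraries Krt6a, Krt79 and Krt14 were higher in 1M, and Krt75, Krt71, Krt28, Krt87 and Krt33a lower. Krt5, Krt15, Krt17, Krt10 and Krt25 were lower in 1M too, and Krt16, Krt1 and Krt80 higher. Differences within this pair were not tested. A fit added after the values were seen used only the 4 libraries with the higher macrophage scores, control 4M and 7F against knockout 3F and 6F. There 7 of 18 tested keratins fell (Krt20, Krt27, Krt28, Krt35, Krt71, Krt73 and Krt75) and 0 rose, against 7.01% and 5.12% of all 17214 genes tested, and the keratin median was −0.39 against 0.05 for all genes. With 2 libraries a group, its spread is estimated from very few values.

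Genes that work with keratins were read in the same 3 fits, and with the macrophage score 2.18% of all genes were lower and 1.39% higher. Desmosomes and plakins tie keratin filaments to the cell border: of 17 tested, Ppl (periplakin) alone fell in the fit with the macrophage score, from 42.9, 22.6 and 23.97 per M to 21.5, 13.1, 10.8 and 13.8 (log2 difference −0.91 ± 0.21, SE; limma adjusted p 0.0488), and 0 rose. Of 13 regulators of epidermal keratins and 11 regulators of hair differentiation, 0 passed in any fit. Klf4, the most abundant of the former and a barrier factor, stood at 838, 932 and 922 per M against 534, 436, 738 and 689.5, lower in every knockout (limma adjusted p 0.0862 with the macrophage score), and Cebpa at 81.6, 165 and 176 against 75.8, 74.5, 266 and 331. Hr and Cux1, the most abundant of the latter, stood at 541, 230.25 and 261 against 211, 216, 175 and 264, and at 436, 129 and 205 against 117, 159, 318 and 238. Of 7 tested partners of hair keratins, Selenbp1, a selenium-binding protein, fell (−0.90 ± 0.20, SE; limma adjusted p 0.0449, with the macrophage score). Its values were 5.74, 12.2 and 16.5 per M in the controls and 3.72, 4.03, 7.12 and 8.57 in the knockouts, so control 4F lay within the knockout range. Tchh, the inner root sheath protein trichohyalin, stood at 16.2, 16.0 and 14.9 per M against 9.07, 10.8, 9.67 and 13.3. Of 5 tested genes of the cornified envelope, Tgm1, the transglutaminase that crosslinks it, rose from 2.76, 5.94 and 7.32 per M to 10.0, 10.8, 14.9 and 19.1 (1.19 ± 0.20, SE; limma adjusted p 0.0151), and no other gene of that list passed. Tgm1 was lowest in control 4F, which had the highest epithelial score, and highest in knockout 6F and 3F, which had the highest macrophage scores. Which cells made it was not tested. By group alone and with the epithelial score, 0 genes of these lists passed. Leaving out single libraries was not run for these lists.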

How the data were processed

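The authors deposited 1 table of normalized counts, a signal and not raw counts, per the file headers. TopHat2 2.1.0 and Partek 9.0.20.0202 are named per the submitters' processing notes, and the libraries were NEBNext Ultra II, made from PureLink RNA, per the labels' protocols. The build, annotation and strand setting are likewise not given in sources used here. Values under 200 reads were whole multiples of a step per library in 78.0% to 79.5% of cases (tolerance 0.02 reads), so the values could not be turned back into whole reads and no count model was fitted. "Per M" means per 1000000 of a column's total. Log2(value + 11.9), where 11.9 is 1 per M of the median total, was fitted with limma 3.58.1 (R 4.3.3; moderated with a trend), Benjamini-Hochberg over 18141 genes. Exon lengths came from GENCODE M21, for 42 of 42 members. The keratins, classes, marker and partner lists, tests and alternatives were chosen with earlier results of these data known. Named genes were every keratin past the threshold, the 3 highest of each class, Zfp750, and of each partner list those past the threshold or else the 2 highest; other names were chosen after their values were seen. Nothing in the labels says how the libraries of a group relate beyond being separate samples, so p-values measure only how these samples vary, which may be technical. The fits by group alone and with the epithelial score were run on simulated data, and the fit with the macrophage score was not.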

Additional observations from a re-analysis of the deposited data

Results flagged for a closer look

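Of 33 groups of keratin values examined for 1 library far from the rest, 2 had one, and chance alone gives about 1 in 20. Krt87 stood at 83.4 normalized counts in knockout 2M, where the next highest knockout had 14.5. Krt33a stood at 58.4 in knockout 2M, where the next highest had 9.08. Both are hair shaft keratins from the same library.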

How the results depend on the processing

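No paired analysis was possible because the columns carry no replicate number that ties them to the titles. The number of keratins past the threshold by group alone (0) became 8 with array weights (5 higher and 3 lower, where 20.9% of all genes passed) and 7 with only the 4 libraries of higher macrophage score, an alternative chosen after seeing the data (all 7 lower; 12.1% of all genes passed). With the macrophage score it went from 5 to 3 with a filter of 5 per M (4.17% of all genes passed). Krt19 and Krt20 were no longer tested there, and Krt75, Krt71 and Krt28 kept their calls. With 1 library left out it ranged from 0 (without control 7F, 1.07% of all genes) to 6 (without control 4F, 8.97%), with 1 without control 4M (0.838%). All of these calls were lower except without knockout 3F, where 2 were higher and 2 lower (2.25%). With the epithelial score it went from 0 to 2 with no filter, 5 with a term for the letter M or F (1 higher; 2.92% of all genes passed) and 24 with array weights (7 higher; 68.0% of all genes passed), whose estimation stopped before convergence; it was 0 to 1 with 1 library left out. Krt4 turned to −0.54 in that array-weight fit. The log2 ratio of group means of summed classes was −0.86 for simple keratins and −1.14 relative to epithelial markers. With 1 library left out, added after seeing the data, it ranged from −0.88 to 1.94 for basal, −0.40 to 2.04 for stress, −0.66 to 0.64 for other, −0.24 to 0.04 for suprabasal and −0.81 to 1.27 for all keratins, so those 5 directions turned; without control 4F the basal, stress and overall values were highest. The causes were not tested. Counting error limits Krt19, Krt20 and the 16 keratins below the filter.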

Other observations

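Krt42, a type I keratin gene below the filter, had 3.10, 0 and 0 normalized counts in the controls and 18.7, 14.5, 1.13 and 2.07 in the knockouts, and Krt90 had 15.5, 6.56 and 41.6 against 9.36, 9.66, 1.13 and 0. Krt1 was 21.8%, 0% and 19.2% of its partner Krt10 in the controls and 276%, 95.0%, 0% and 64.3% in the knockouts. Keratins listed in the 9 classes but not in the table, 14 of 56, among them Krt2, Krt13 and Krt85, were not analysed here.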
